A study of Mus musculus with 12 samples.

Results

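The cytosolic heat shock chaperones described here are 9 genes, Hspa1a, Hspa1b, Hspa8, Hsph1, Hsp90aa1, Hsp90ab1, Dnajb1, Hspb1 and Hsf1, found by their symbols among the 35791 genes counted in small bowel of male C57BL/6 mice. All 9 were found, and all 9 passed the filter on low counts that left 13154 genes for testing. The bowel was sequenced in 12 RNA-seq libraries, 3 in each of 4 groups. The Post 2'-FL group was taken after ileocecal resection, in which the end of the ileum is cut out together with the cecum, from mice given 2'-fucosyllactose (2'-FL, a sugar of human milk). Dosing at 2.5 g/L began on day 0, when surgery was done. The Post control group was taken after resection without the sugar. The Pre 2'-FL and Pre control groups carry the labels of the same arms before resection. Bowel taken before surgery would precede this dosing, so whether Pre 2'-FL mice had been given the sugar is not known. The labels give an age of 8 to 10 weeks and a liquid diet with day 7 for every library, and they date the harvest of every bowel to 8 weeks after surgery, which cannot hold for the 6 libraries labelled pre-resection. Groups were therefore taken from each library's own label. If Post bowel was taken 8 weeks after surgery, Post and Pre libraries also differ in age and time, although the labels give them the same age. No group had surgery without resection, so effects of resection, surgery, age and time cannot be told apart. The bowel segment, the hour of collection and whether libraries came from single or pooled mice are not given in the sources used here, and p-values measure the spread between these libraries, which may be technical.

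Heat shock proteins hold unfolded proteins and help them to fold, or pass them on for breakdown. HSP70 binds exposed stretches of a client protein and is driven through its ATP cycle by J-domain partners (HSP40) and by exchange factors such as HSP110, while HSP90 acts later, on clients that are nearly folded, and small heat shock proteins hold clients without ATP. Under heat, oxidants or other protein damage, the transcription factor HSF1 leaves its chaperone partners, forms trimers and binds inverted nGAAn repeats in the promoters of the inducible genes. In the gut epithelium, inducible HSP70 and the small heat shock protein are known as protective proteins whose level responds to bacteria and diet.

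The promoters of the inducible genes are shown because their letters bear on how far the genes can be told apart and on which of them carry the HSF1 repeat. Each window runs from 250 bases before to 50 bases after the annotated start in RefSeq (GRCm38.p6), on the strand of the gene, with matches to GAANNTTC or TTCNNGAA in capitals. The search covered both strands, since each pattern is its own reverse complement, and overlapping matches were kept.
Hspa1a, chr17:34972107-34972406, minus strand: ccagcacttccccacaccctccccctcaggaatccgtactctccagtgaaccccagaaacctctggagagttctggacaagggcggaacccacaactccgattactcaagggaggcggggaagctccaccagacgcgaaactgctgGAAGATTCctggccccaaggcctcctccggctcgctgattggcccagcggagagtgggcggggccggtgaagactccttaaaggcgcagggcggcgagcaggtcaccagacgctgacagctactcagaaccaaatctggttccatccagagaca
Hspa1b, chr17:34959189-34959488, minus strand: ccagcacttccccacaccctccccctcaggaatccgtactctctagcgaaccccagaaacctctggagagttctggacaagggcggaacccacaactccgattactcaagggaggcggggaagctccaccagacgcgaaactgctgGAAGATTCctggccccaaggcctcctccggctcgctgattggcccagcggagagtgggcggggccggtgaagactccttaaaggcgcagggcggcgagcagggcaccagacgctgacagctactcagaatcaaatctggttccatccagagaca
Hsph1, chr5:149636287-149636586, minus strand: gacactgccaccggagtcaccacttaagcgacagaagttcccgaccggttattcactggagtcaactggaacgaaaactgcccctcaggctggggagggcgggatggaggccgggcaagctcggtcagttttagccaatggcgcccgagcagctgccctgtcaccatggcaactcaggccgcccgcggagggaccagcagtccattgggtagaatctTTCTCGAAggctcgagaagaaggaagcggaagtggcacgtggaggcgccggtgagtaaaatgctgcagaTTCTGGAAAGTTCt
Hspb1, chr5:135887669-135887968, plus strand: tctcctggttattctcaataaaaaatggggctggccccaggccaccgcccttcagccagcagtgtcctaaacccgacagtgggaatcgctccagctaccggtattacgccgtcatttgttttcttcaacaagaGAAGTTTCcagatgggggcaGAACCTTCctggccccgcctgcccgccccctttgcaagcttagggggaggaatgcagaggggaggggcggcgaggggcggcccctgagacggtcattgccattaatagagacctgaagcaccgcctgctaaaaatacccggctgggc

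The Hspa1a and Hspa1b windows differed at 4 of 300 bases, and both held GAAGATTC at the same place, with its first base 104 bases before the start. Hsph1 has a pair of overlapping windows, of which the first is shown. It held TTCTCGAA before its start and, after it, the overlapping pair TTCTGGAA and GAAAGTTC, which together form the longer repeat TTCTGGAAAGTTC. Hspb1 held GAAGTTTC and GAACCTTC, both before its start. Neither of the Dnajb1 windows held a match, which says only that these letters are not in those windows. Matches to the short pattern are common, occurring in 15.1% of the 32851 promoter windows of all genes, while the longer pattern, GAANNTTCNNGAA or TTCNNGAANNTTC, occurred in 0.603% of them. Windows were found for 5 of the 9 genes, and Hspa8, Hsp90aa1, Hsp90ab1 and Hsf1 are named here without one.

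Hspa1a and Hspa1b both code for the stress-inducible HSP70 and lie close together on chromosome 17, from 34969359 to 34972156 and from 34956429 to 34959238 in GRCm38.p6. Their coding sequences were 99.4% identical, with 8 mismatches and 3 gap positions, and 58.8% of the 50-base stretches of the Hspa1a transcript also occurred in that of Hspa1b. The coding sequence of Hspa8, the constitutive HSP70, was 73.9% identical to that of Hspa1a. Reads of the inducible pair were therefore divided between near-identical copies in a way the sources used here do not give, and the values of each copy are uncertain. Hspa1a took between 24.0% and 44.2% of the sum of both genes in the 12 libraries. The sum is therefore given beside the single genes.

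Levels between genes are compared per length of transcript, as CPM (counts scaled to a common library size after TMM normalisation) per kilobase of transcript. Averaged over the 12 libraries, Hspa8 had the highest level of the 9 genes at 543 CPM per kilobase, followed by Hsp90ab1, the constitutive HSP90, at 219.7 CPM per kilobase and Hsp90aa1, the inducible HSP90, at 66.9 CPM per kilobase. Dnajb1 averaged 22.3 CPM per kilobase. Hsph1 at 13.7 and Hspb1 at 13.2 CPM per kilobase lay closer together than the spread of either gene over the groups, as did Hspa1a at 5.20 and Hsf1 at 4.98 CPM per kilobase. Hspa1b averaged 8.27 CPM per kilobase, but its place in the order moved with the group, since it averaged 21.7 ± 19.5 CPM per kilobase in Post control libraries and 2.96 ± 0.700 CPM per kilobase in Pre control libraries (SD, n = 3 each).

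The inducible HSP70 genes and Hsph1 varied most over the libraries. The SD of log2 CPM over 12 libraries was 1.55 for Hspa1a and 1.44 for Hspa1b, above those of 99.4% and 98.9% of all tested genes, and 0.99 for Hsph1, above that of 91.7%. The median over all tested genes was 0.53. Dnajb1, Hspa8 and Hsp90aa1 had SDs of 0.46, 0.47 and 0.48, while Hsp90ab1 was at 0.34 and Hspb1 at 0.37. The plot of CPM by library shows the wide span of the inducible genes beside the narrow span of Hsp90ab1.

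**Figure D1:**
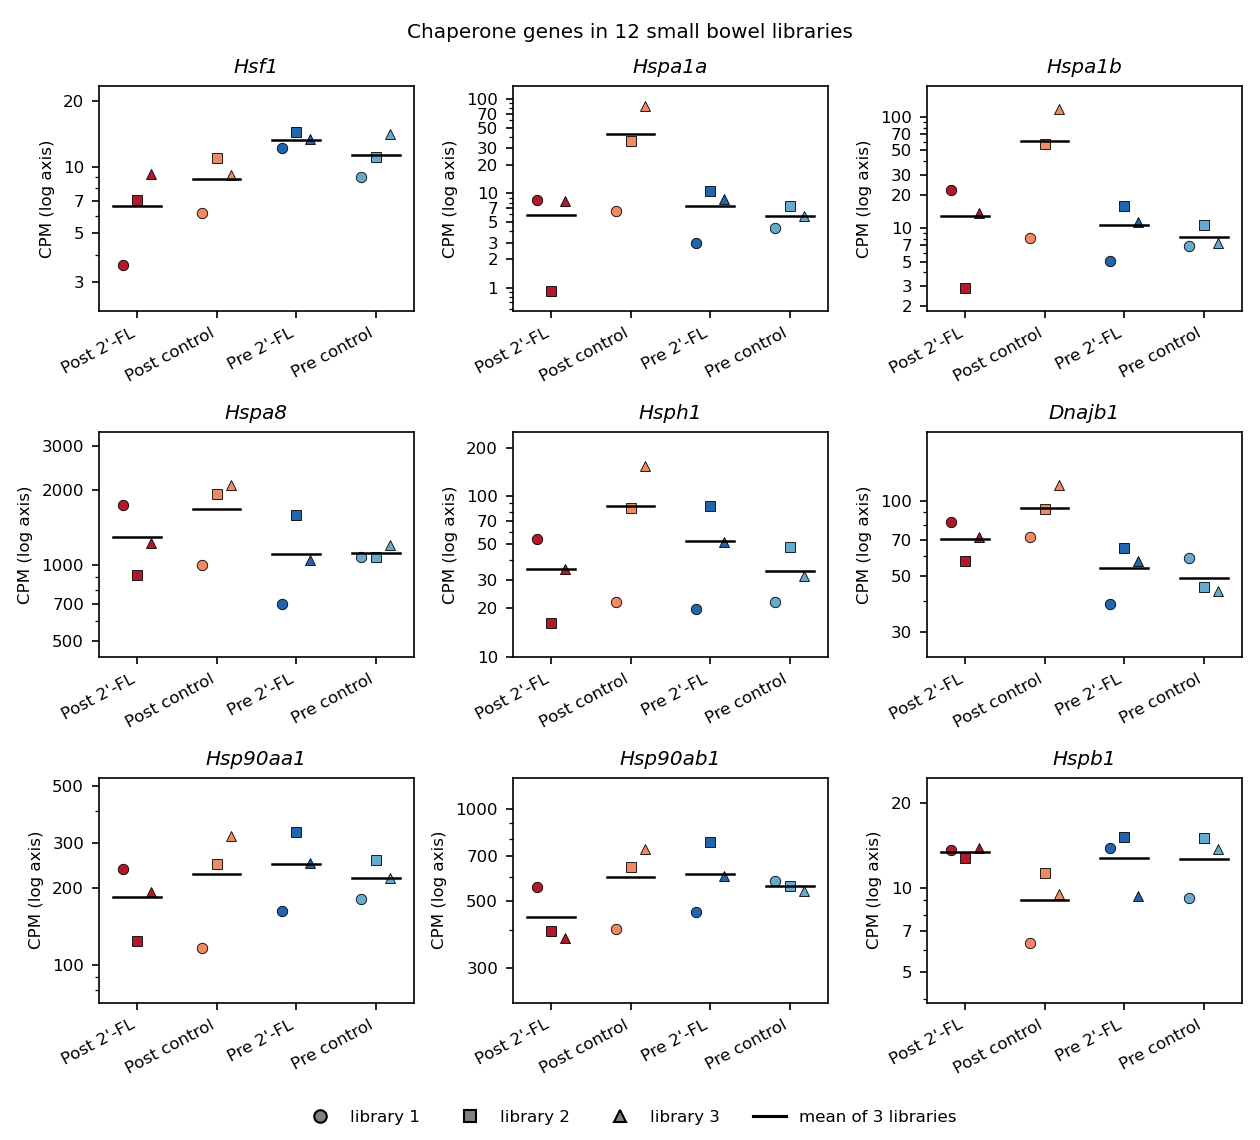
CPM of the 9 chaperone genes (log axis) in each library of the 4 groups, with a point per library and a line at the group mean. Post control libraries 2 and 3 are the highest of all 12 for Hspa1a, at 36.4 and 84.8 CPM, and Post 2'-FL library 2 is the lowest, at 0.924 CPM.

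After resection without 2'-FL, the inducible HSP70 genes and their J-domain partner were higher than before resection, with the gain of the HSP70 genes carried by 2 of the 3 libraries. Hspa1a was at 6.47, 36.4 and 84.8 CPM in Post control libraries 1, 2 and 3, against 4.32, 7.31 and 5.82 CPM in the Pre control libraries. Hspa1b was at 8.17, 57.0 and 117 CPM in Post control libraries, against 6.99, 10.6 and 7.37 CPM in Pre control libraries. Post control libraries 2 and 3 were above every Pre control library for both genes, whereas Post control library 1 lay within the Pre control range. Both genes rose by 2.87 ± 0.75 on the log2 scale (SE, 7.31-fold), with an adjusted p of 0.0285 for each in edgeR's quasi-likelihood test over all 13154 genes. The sum of both genes was 14.6, 93.4 and 202 CPM in Post control libraries 1, 2 and 3, against 11.3, 17.9 and 13.2 CPM in Pre control libraries. Without Post control library 3 the log2 changes were 1.87 for Hspa1a and 1.97 for Hspa1b with adjusted p of 0.104 and 0.0908, and the call of both genes was also lost without Post control library 2 or without any 1 of the 3 Pre control libraries.

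Dnajb1, the main inducible HSP40, which starts the ATP cycle of HSP70, showed the cleaner separation of the same groups. Its values were 72.0, 93.0 and 116 CPM in Post control libraries and 59.4, 45.2 and 43.6 CPM in Pre control libraries, so that all 3 Post control libraries lay above all 3 Pre control libraries, as they did for 17.3% of all tested genes. It rose by 0.92 ± 0.24 on the log2 scale (1.90-fold, adjusted p = 0.0266). Without Post control library 3 the change was 0.75 with an adjusted p of 0.0647, and the call was also lost without Post control library 2, Pre control library 2 or Pre control library 3. Hsph1, the HSP110 that exchanges nucleotide on HSP70, had 22.0, 84.8 and 155 CPM in Post control libraries against 21.9, 48.0 and 31.9 CPM in Pre control libraries. Its groups overlapped, again through Post control library 1, and its log2 difference of 1.37 ± 0.61 did not pass, with an adjusted p of 0.153.

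The other chaperones differed less in this comparison, and none of them passed. Hspa8, the HSP70 that cells make at all times, was at 1002, 1919 and 2097 CPM in Post control libraries and at 1083, 1079 and 1205 CPM in Pre control libraries, a log2 difference of 0.58 ± 0.34 (adjusted p = 0.269). The same 2 Post control libraries were again the high ones. Hsp90aa1 was at 116, 247 and 319 CPM in Post control libraries, around the 180.4, 256 and 218 CPM of the Pre control libraries, and Hsp90ab1 was at 404, 644 and 743 CPM in Post control libraries, around 581, 558 and 540.3 CPM in Pre control libraries. The log2 differences of the HSP90 genes were 0.06 ± 0.34, with a 95% interval from -0.67 to 0.79, and 0.09 ± 0.26, with an interval from -0.46 to 0.65. Hspb1, the main small heat shock protein of many tissues, had 6.32, 11.3 and 9.52 CPM in Post control libraries against 9.15, 15.0 and 13.7 CPM in Pre control libraries, a difference of -0.48 ± 0.26 (adjusted p = 0.236).

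Post control against Pre control thus gave 3 called genes of 9, all higher, where 10.8% of all tested genes were called and 4.42% were called higher. Of these 3, Hspa1a and Hspa1b are near-identical copies that share reads, so their calls are not separate results. Counts of the 9 genes, here and below, still take each copy as a gene. The median log2 difference of the 9 genes was 0.58, and that of all tested genes was -0.05. Correcting each library for its trend with transcript length and GC content left the same 3 genes called, where 11.9% of all tested genes were called and 5.37% were called higher, with log2 changes of 2.97 for Hspa1a, 2.93 for Hspa1b and 0.96 for Dnajb1. Epithelial marker genes summed to between 18539 and 19458 CPM in Post control libraries and to between 12842 and 18601 CPM in Pre control libraries. Smooth muscle marker genes summed to between 813 and 1282 CPM in Post control libraries and to between 1326 and 1627 CPM in Pre control libraries. Post control library 1, with low inducible chaperones, had the lowest sum of its group for both lists, at 18539 and 813 CPM. It also had the lowest fat marker sum, at 114 CPM, but the highest endothelial and neuron and glia sums, at 44.7 and 8.32 CPM. Its leukocyte, fibroblast and acinar pancreas sums lay between those of the other Post control libraries. The part of cell composition in these differences was not tested, and in bulk tissue fewer cells of a type and less RNA per cell cannot be told apart.

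In the 2'-FL arm the same contrast, after against before resection, called only Hsf1 of the 9 genes. Hsf1, the transcription factor of the heat shock response, had 3.60, 7.08 and 9.30 CPM in Post 2'-FL libraries against 12.2, 14.4 and 13.4 CPM in Pre 2'-FL libraries. All 3 Post 2'-FL libraries lay below all 3 Pre 2'-FL libraries, as they did for 33.7% of all tested genes. Its log2 change was -0.99 ± 0.31 (adjusted p = 0.0155), and it fell by 1.08 after correction for length and GC content, but without Post 2'-FL library 1 the change was -0.70 with an adjusted p of 0.0565. The number of genes called in this comparison was large: 1 of the 9 genes was called where 55.3% of all tested genes were, and 30.0% were called lower. The summed endothelial, leukocyte, and neuron and glia markers also lay lower in all 3 Post 2'-FL libraries than in all 3 Pre 2'-FL libraries, and their part in the Hsf1 change was not tested. In the control arm Hsf1 was at 6.16, 11.0 and 9.22 CPM in Post control libraries against 9.03, 11.1 and 14.1 CPM in Pre control libraries (-0.38 ± 0.30, adjusted p = 0.417). Its change in the 2'-FL arm minus that in the control arm was -0.61 ± 0.44 (adjusted p = 0.348). A difference between the arms was thus not established for Hsf1. Over both arms together Hsf1 was lower by 0.69 ± 0.22 on the log2 scale (adjusted p = 0.0155).

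The inducible genes of the 2'-FL arm overlapped between the times. Hspa1a was at 8.52, 0.924 and 8.37 CPM in Post 2'-FL libraries against 3.02, 10.5 and 8.81 CPM in Pre 2'-FL libraries, and Hspa1b was at 22.2, 2.93 and 13.8 CPM in Post 2'-FL libraries against 5.08, 15.8 and 11.4 CPM in Pre 2'-FL libraries. Post 2'-FL library 2 and Pre 2'-FL library 1 were the low libraries, and the lowest value rests on 6 counts. The log2 differences were -0.33 ± 0.80 for Hspa1a and 0.27 ± 0.75 for Hspa1b, with 95% intervals from -2.04 to 1.38 and from -1.34 to 1.88. Intervals of this width hold changes of several fold in either direction. Dnajb1 was at 82.2, 57.7 and 72.0 CPM in Post 2'-FL libraries and at 38.8, 65.0 and 57.4 CPM in Pre 2'-FL libraries, a difference of 0.40 ± 0.24 (adjusted p = 0.167) that passed only after correction for length and GC content, at 0.69 ± 0.24 (adjusted p = 0.0371).

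For the HSP90 genes and Hsph1 the difference between times in the 2'-FL arm was negative but within the spread of the libraries. Hsp90ab1 was at 556, 397 and 376 CPM in Post 2'-FL libraries against 459, 783 and 603 CPM in Pre 2'-FL libraries, a log2 difference of -0.47 ± 0.26 (adjusted p = 0.135) that was called only when libraries were scaled by their totals, at -0.82 (adjusted p = 0.0140). Hsp90aa1 was at 236, 124 and 193 CPM in Post 2'-FL libraries against 163, 331 and 250.1 CPM in Pre 2'-FL libraries, a difference of -0.43 ± 0.34 (adjusted p = 0.304). Hsph1 was at 54.2, 16.2 and 35.3 CPM in Post 2'-FL libraries against 19.7, 86.6 and 51.7 CPM in Pre 2'-FL libraries, a difference of -0.58 ± 0.61 (adjusted p = 0.438). Hspa8 was at 1743, 912 and 1224 CPM in Post 2'-FL libraries against 703, 1584 and 1049 CPM in Pre 2'-FL libraries, a difference of 0.22 ± 0.34 (adjusted p = 0.602). The groups overlapped for each of these genes.

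Between the arms after resection, the inducible HSP70 genes were lower with 2'-FL than without it, by an amount that depended on a correction and on a single library. Hspa1a averaged 5.94 ± 4.34 CPM in Post 2'-FL libraries and 42.5 ± 39.5 CPM in Post control libraries, and Hspa1b averaged 13.0 ± 9.64 CPM in Post 2'-FL libraries and 60.7 ± 54.5 CPM in Post control libraries (SD, n = 3 each). Post control library 1 lay within the range of the Post 2'-FL libraries for both genes. On the log2 scale Hspa1a fell by 2.88 ± 0.77 (0.136-fold, adjusted p = 0.00979) and Hspa1b by 2.25 ± 0.74 (0.210-fold, adjusted p = 0.0263). These 2 of the 9 genes were called, both lower, where 38.1% of all tested genes were called and 19.3% were called lower. After correction for length and GC content the differences were -2.30 ± 0.81 and -1.71 ± 0.79 with adjusted p of 0.0563 and 0.130. By edgeR 0 of the 9 genes were then called, where 22.5% of all tested genes were called. At an unadjusted p under 0.05 were 2 of the 9 genes and 4906 of all 13154. Without Post control library 3 the uncorrected differences were -1.80 and -1.27, with adjusted p of 0.0954 and 0.218, and the call of Hspa1b was also lost without Post 2'-FL library 2 or 3. Marker sums also differed without overlap between these groups. Epithelial markers summed to between 11181 and 15624 CPM in Post 2'-FL libraries and to between 18539 and 19458 CPM in Post control libraries, smooth muscle markers to between 1597 and 1859 CPM in Post 2'-FL libraries and to between 813 and 1282 CPM in Post control libraries, and fibroblast markers to between 295 and 497 CPM in Post 2'-FL libraries and to between 116 and 210.5 CPM in Post control libraries. These sums were not corrected for length. As tested, 3 of 10 epithelial markers were called lower and 0 higher. Of smooth muscle and fibroblast markers, 3 of 9 and 3 of 6 were called higher and 0 lower, where 18.8% of all tested genes were called higher. Lgals4 ran against the epithelial sum, at 5105, 4323 and 4833 CPM in Post 2'-FL libraries against 3401, 4160.4 and 3105 CPM in Post control libraries. Of the fibroblast markers, Col1a1 and Col1a2 overlapped between the groups. Col1a1 was at 5.49, 8.01 and 6.88 CPM in Post 2'-FL libraries against 10.2, 4.39 and 18.5 CPM in Post control libraries. The part of these cell types in the HSP70 difference was not tested.

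The Post 2'-FL libraries held relatively few counts of long transcripts. Across genes, the rank correlation (Spearman's rho) of a library's deviation from the mean library with transcript length was between -0.60 and -0.44 in Post 2'-FL libraries, between -0.21 and 0.36 in Post control libraries and between 0.26 and 0.50 in the Pre libraries, and genes are not independent replicates. The correction removed trends with length and GC content together, so the part of each was not separated. The trend removed from Hspa1a, with a transcript of 2967 bases and 58.9% GC, was -0.82 on the log2 scale in Post 2'-FL library 1, against shifts from 0.03 to 0.10 in the Post control libraries. In the same Post 2'-FL library the shift was -0.13 for Hsph1, with 3802 bases and 47.4% GC, and 0.37 for Hsp90aa1, with 3281 bases and 43.7% GC. For Hspb1, with 903 bases and 60.7% GC, the shifts were between 0.31 and 0.62 in Post 2'-FL libraries and between -0.33 and 0.18 in Post control libraries. Hspb1 was at 13.6, 12.8 and 13.8 CPM in Post 2'-FL libraries, above all Post control libraries at 6.32, 11.3 and 9.52 CPM, as was so for 25.2% of all tested genes, but its log2 difference of 0.57 ± 0.27 (adjusted p = 0.111) was 0.06 ± 0.27 after correction. The plot of fold changes sets both versions side by side.

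**Figure D2:**
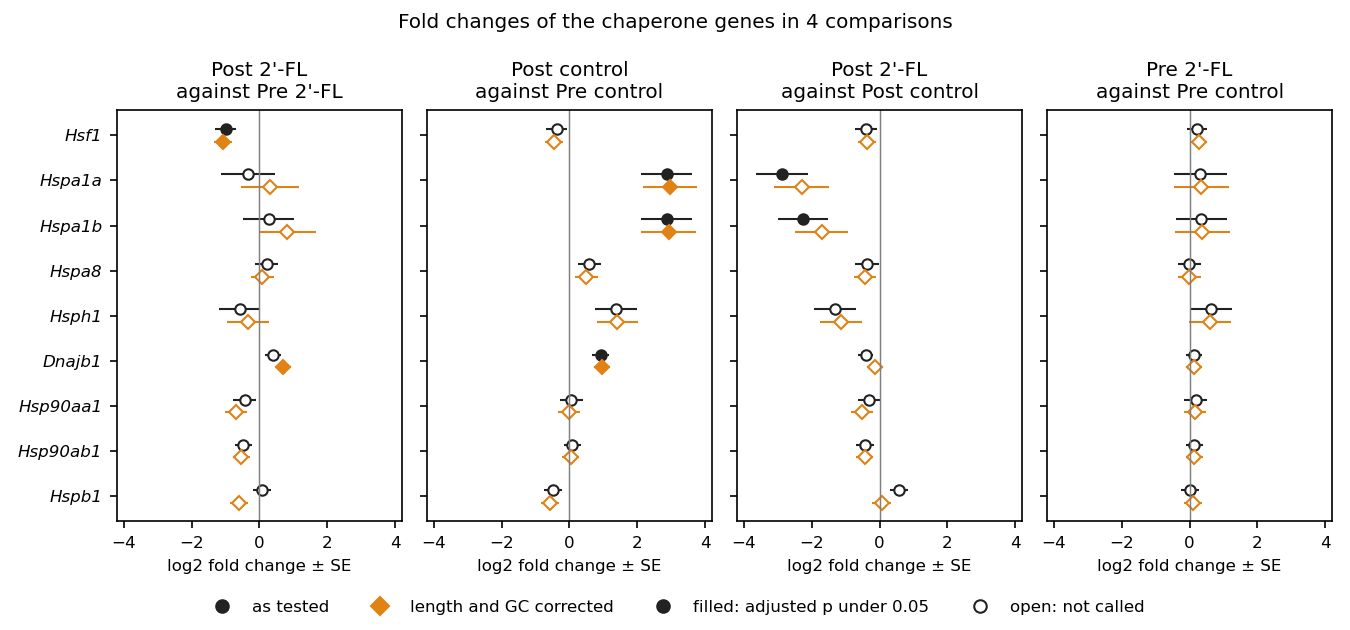
Log2 fold changes with their SE for the 9 genes in 4 comparisons, as tested (circles) and after correction for transcript length and GC content (diamonds), with filled symbols at an adjusted p under 0.05. Hspa1a, Hspa1b and Dnajb1 stand to the right of 0 in Post control against Pre control in both versions, while Hspa1a and Hspa1b in Post 2'-FL against Post control are filled only as tested, at -2.88 and -2.25.

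The remaining genes did not pass between the arms after resection. Hsph1 averaged 35.2 ± 19.0 CPM in Post 2'-FL libraries and 87.3 ± 66.5 CPM in Post control libraries, a log2 difference of -1.32 ± 0.62 (adjusted p = 0.105). Dnajb1 averaged 70.6 ± 12.3 CPM in Post 2'-FL libraries and 93.5 ± 21.8 CPM in Post control libraries, a difference of -0.41 ± 0.23 (adjusted p = 0.183), which was called at -0.65 when libraries were scaled by their totals (adjusted p = 0.0369). Hspa8, Hsp90aa1, Hsp90ab1 and Hsf1 differed by between -0.43 and -0.30 on the log2 scale, with adjusted p of 0.204 or more.

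Whether the change from before to after resection differed between the arms was tested by the interaction. It is the log2 change of the 2'-FL arm minus that of the control arm. It was -3.20 ± 1.08 for Hspa1a (adjusted p = 0.0582), -2.60 ± 1.05 for Hspa1b (adjusted p = 0.102) and -1.95 ± 0.87 for Hsph1 (adjusted p = 0.135). By edgeR 0 of the 9 genes were called, and DESeq2 also called 0, where 15.5% of all tested genes were called by edgeR. At an unadjusted p under 0.05 by edgeR were 3 of the 9 genes and 4273 of all 13154. A difference between the arms in the change after resection was thus not established for any of the genes at this depth and number of libraries. Single libraries moved it in both directions. Without Post control library 1, Hspa1a and Hspa1b were called at -3.64 and -3.05 (adjusted p = 0.0295 and 0.0337), while without Post control library 3 they were at -2.13 and -1.62 (adjusted p = 0.212 and 0.333). After correction for length and GC content they were at -2.65 and -2.10 (adjusted p = 0.209 and 0.308), where 0.00760% of all tested genes were called.

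Before resection the arms were close. Dosing is dated to the day of surgery, so the Pre 2'-FL mice may not yet have had the sugar. Hspa1a averaged 7.43 ± 3.91 CPM in Pre 2'-FL libraries and 5.82 ± 1.50 CPM in Pre control libraries, Hspa1b 10.7 ± 5.38 CPM in Pre 2'-FL libraries and 8.31 ± 1.96 CPM in Pre control libraries, and Hsph1 52.6 ± 33.4 CPM in Pre 2'-FL libraries and 33.9 ± 13.2 CPM in Pre control libraries (SD, n = 3 each). The log2 differences of the 9 genes ran from -0.01 for Hspa8 to 0.63 for Hsph1. By edgeR 0 of the 9 genes were called, and DESeq2 called 0, where 0.0152% of all tested genes were called by edgeR. At an unadjusted p under 0.05 by edgeR were 0 of the 9 genes and 445 of all 13154. The 95% intervals still held up to 1.97 for Hspa1a and 1.93 for Hsph1, so moderate differences were not detectable here. The Pre 2'-FL libraries spread more widely than the Pre control libraries for Hspa8, with an SD of 444 CPM in Pre 2'-FL libraries and 71.6 CPM in Pre control libraries, and for Hsp90ab1, with an SD of 162 CPM in Pre 2'-FL libraries and 20.2 CPM in Pre control libraries.

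Over both arms together, the Post libraries were higher than the Pre libraries for Dnajb1 by 0.66 ± 0.17 on the log2 scale (1.58-fold, adjusted p = 0.00410) and for Hspa1b by 1.57 ± 0.53 (2.97-fold, adjusted p = 0.0202). With the lower Hsf1, 3 of the 9 genes were called in this comparison, where 56.4% of all tested genes were. After correction 5 of the 9 were called, Hspa1a joining at 1.64 ± 0.58 (adjusted p = 0.0350) and Hspb1 at -0.59 ± 0.19 (adjusted p = 0.0235), where 44.2% of all tested genes were. Dnajb1 kept its call without each of the 12 libraries in turn, with log2 changes between 0.60 and 0.78. Hspa1b lost its call without Post 2'-FL library 1 (1.25, adjusted p = 0.0792) or Post control library 3 (1.15, adjusted p = 0.0685), and Hsf1 without Post control library 1 (-0.54, adjusted p = 0.0580). That comparison shares its libraries with the comparisons within each arm.

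Most of the chaperones varied together from library to library, which is described here over 12 libraries that share their groups, with no test. Pearson's r of log2 CPM was 0.905 between Hspa1a and Hsph1, 0.894 between Hspa1b and Hspa8, 0.732 between Hspa1a and Dnajb1 and 0.707 between Hspa1a and Hsp90aa1. After each group's mean was removed, r between Hsph1 and Hsp90aa1 was 0.997, and between Hspa8 and Hsp90ab1 it was 0.941. Pairs with lower r were Dnajb1 with Hsp90aa1 at 0.303 and with Hsp90ab1 at 0.327, and these were 0.781 and 0.859 after the group means were removed. Between Hsf1 and Hspa1a r was 0.115, and 0.223 with group means removed. Between Hspb1 and Hspa1a r was -0.186, but 0.438 with group means removed, and Hspb1 then had r of 0.532 with Hsph1 and 0.560 with Hsp90aa1. The r of 0.974 between Hspa1a and Hspa1b is not evidence of shared behaviour, since the near-identical copies share reads.

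The libraries were ordered by the mean log2 CPM of Hspa1a, Hspa1b, Hsph1, Dnajb1 and Hsp90aa1, each gene in SDs from its mean over 12 libraries. Post control libraries 3 and 2 were highest at 1.87 and 1.10, followed by Pre 2'-FL library 2 at 0.58 and Post 2'-FL library 1 at 0.42. The lowest were Post 2'-FL library 2 at -1.30 and Pre 2'-FL library 1 at -1.03, so high and low libraries occurred in the same group. Counts of the 9 genes made up between 0.147% of the counts of all tested genes, in Post 2'-FL library 2, and 0.391%, in Post control library 3. The ratio of Hsp90aa1 to Hsp90ab1 counts ran from 0.312 to 0.514 in Post 2'-FL libraries and from 0.288 to 0.429 in Post control libraries. It ran from 0.355 to 0.423 in Pre 2'-FL libraries and from 0.311 to 0.459 in Pre control libraries. The ranges of all groups overlapped, with the highest ratio in a Post 2'-FL library and the lowest in a Post control library.

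**Figure D3:**
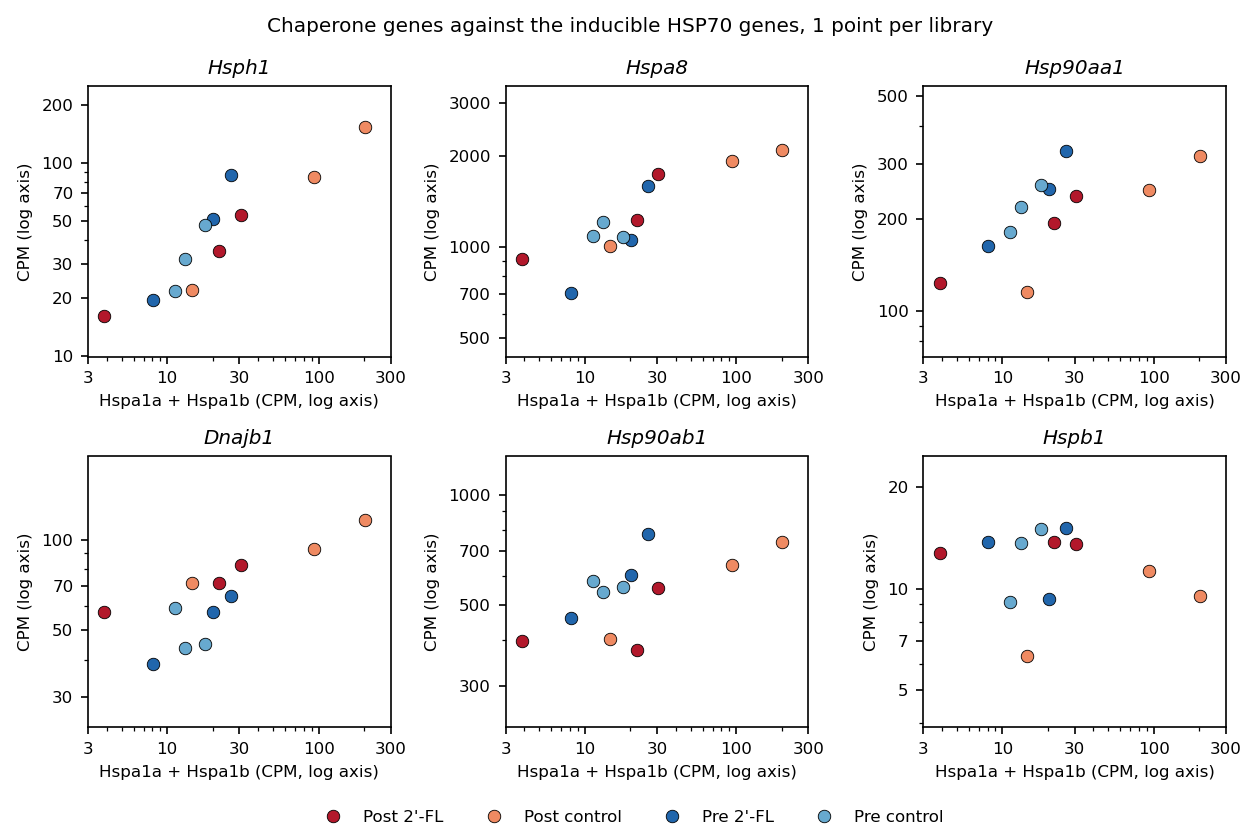
CPM of 6 chaperone genes (log axis) against the summed CPM of Hspa1a and Hspa1b (log axis), with a point per library coloured by group. Hsph1 is lowest in Post 2'-FL library 2, where the HSP70 sum is 3.85 CPM, and Hsph1, Hspa8 and Dnajb1 are highest in Post control library 3, where it is 202 CPM, while Hspb1 is not.

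Among 10126 tested genes with a mean of at least 5 CPM, those most alike in pattern to that mean over 12 libraries were Arih1, a ubiquitin ligase (r = 0.85), Ahsa2, related to the HSP90 activator Ahsa1 (r = 0.84), Dnaja1, a J-domain partner of HSP70 (r = 0.83), Luc7l (r = 0.82), Rexo4 (r = 0.81), Efcab14 (r = 0.80), the oxidase Ero1l (r = 0.80) and the sodium-proton exchanger Slc9a3 (r = 0.76). With group means removed, Pwp1 (r = 0.96), Dnaja1 (r = 0.94), Tbl2 (r = 0.93), Ippk (r = 0.93), the translation termination factor Gspt1 (r = 0.92), Slc25a33 (r = 0.91), Foxa3 (r = 0.91) and Naa15 (r = 0.91) came first. Dnaja1 stood in both lists. It was at 378, 239.6 and 345 CPM in Post 2'-FL libraries, 284, 483 and 500.0 CPM in Post control libraries, 189, 277 and 231 CPM in Pre 2'-FL libraries and 225, 253 and 185 CPM in Pre control libraries. Of other partners, r over 12 libraries was 0.76 for Stip1, which bridges HSP70 and HSP90, 0.71 for the HSP110 relative Hspa4l and 0.46 for the exchange factor Bag3.

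The wider network around these chaperones was read from lists, described by how many of their tested genes were called. In Post control against Pre control few list genes passed, where 4.42% of all tested genes were called higher and 6.33% lower. The J-domain partners of the cytosol had 2 of 12 higher and 0 lower, with Dnajb2 at 23.0, 56.8 and 38.5 CPM in Post control libraries against 12.6, 16.0 and 10.1 CPM in Pre control libraries (1.61 ± 0.29 on the log2 scale, adjusted p = 0.00681). Among 7 relatives of HSP70 and HSP110, 1 was higher and 1 lower. The lower one was Hspa2, an HSP70 known from testis, at 1.08, 1.46 and 2.91 CPM in Post control libraries against 5.97, 8.43 and 13.0 CPM in Pre control libraries (-2.25 ± 0.43, adjusted p = 0.00788). The higher one was Hspa1l, at 1.85, 2.56 and 4.91 CPM in Post control libraries against 0.636, 1.42 and 0.832 CPM in Pre control libraries (1.68 ± 0.47, adjusted p = 0.0355), and how far this close relative of Hspa1a shares its reads was not tested.

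Of 4 tested small heat shock proteins beside Hspb1, 0 were higher and 1 was lower in Post control against Pre control, with a median of -0.94. The one that passed was Hspb8, a partner of Bag3, at 3.85, 6.76 and 6.51 CPM in Post control libraries against 8.77, 11.5 and 13.3 CPM in Pre control libraries (-0.97 ± 0.27, adjusted p = 0.0366). Both groups were also apart for Ier5, known as a coactivator of HSF1, at 127, 149 and 96.1 CPM in Post control libraries against 41.8, 46.4 and 34.0 CPM in Pre control libraries (1.60 ± 0.23, adjusted p = 0.002). It was the 1 gene that passed among 5 tested heat shock factors and regulators. The chaperonin TRiC and prefoldin had 0 of 13 called, HSP90 partners 0 of 15 and mitochondrial chaperones 0 of 11, with medians of -0.03, 0.01 and -0.03, and 1 of 10 exchange factors and other HSP70 partners was higher. Of 22 genes for chaperones of the endoplasmic reticulum and its stress response, 2 were higher, Atf4 and Ddit3, transcription factors of the stress response, by 0.87 ± 0.18 and 0.94 ± 0.20 (adjusted p = 0.0133 and 0.0142).

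With 2'-FL after resection, against Post control, 18.8% of all tested genes were called higher and 19.3% lower as tested, and 9.80% higher and 12.7% lower after the correction for length and GC content, so list counts are read against these shares. TRiC and prefoldin had 10 of 13 higher and 0 lower as tested, with a median of 0.70, but 1 higher and 1 lower after correction, with a median of 0.25. All genes had medians of 0.02 as tested and -0.03 corrected. Of 4 small heat shock proteins, 2 were higher as tested and 1 after correction. Hspb8 was at 20.1, 16.5 and 14.1 CPM in Post 2'-FL libraries against 3.85, 6.76 and 6.51 CPM in Post control libraries, a rise of 1.56 ± 0.27 (adjusted p = 0.00104) and of 1.33 after correction, when it was still called. Cryab, the alpha-B crystallin, was at 11.7, 13.6 and 10.0 CPM in Post 2'-FL libraries against 4.31, 5.67 and 4.41 CPM in Post control libraries, a rise of 1.30 ± 0.29 (adjusted p = 0.00328) that did not pass after correction, at 0.74. Both are abundant in muscle, and the 9 smooth muscle markers summed to more in every Post 2'-FL library than in every Post control library. Of these 9, 3 were called higher and 0 lower in either version. Mylk did not follow the sum, at 210.2, 359 and 263 CPM in Post 2'-FL libraries against 270.1, 379 and 429 CPM in Post control libraries. Nor did Myh11, at 30.1, 61.4 and 45.8 CPM against 51.3, 55.4 and 128 CPM in the same groups. The part of smooth muscle in the result was not tested.

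Of 7 HSP70 relatives, 4 were lower and 1 higher in the same comparison as tested, and 2 lower and 0 higher after correction, beside 19.3% and 12.7% of all tested genes called lower in these versions. Hspa4l was at 12.7, 9.85 and 10.2 CPM in Post 2'-FL libraries against 13.9, 22.1 and 26.7 CPM in Post control libraries, where it fell by 0.94 as tested and was still called at -0.87 after correction. Hspa1l was at 0.379, 0.462 and 0.372 CPM in Post 2'-FL libraries, at or under 3 counts each, against 1.85, 2.56 and 4.91 CPM in Post control libraries (adjusted p = 0.00182). Among 10 exchange factors and other partners of HSP70, 2 were higher and 2 lower in either version. Bag2, an inhibitor of the ubiquitin ligase that marks HSP70 clients, was at 20.3, 7.70 and 15.4 CPM in Post 2'-FL libraries against 1.69, 4.39 and 4.01 CPM in Post control libraries, a rise of 2.09 ± 0.38 (1.73 corrected, called). Bag3, known as an HSF1 target, was at 14.6, 9.70 and 18.4 CPM in Post 2'-FL libraries against 23.4, 25.4 and 39.1 CPM in Post control libraries, a fall of 1.05 on the log2 scale as tested, with -0.79 and a call after correction.

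Other compartments were mixed, beside 18.8% of all tested genes called higher and 19.3% lower as tested and 9.80% and 12.7% after correction. Of 11 mitochondrial chaperones, 3 were higher and 1 lower as tested and 3 higher and 0 lower after correction. Grpel1, the exchange factor of mitochondrial HSP70, was at 169, 100.1 and 137 CPM in Post 2'-FL libraries against 58.4, 64.5 and 46.3 CPM in Post control libraries, a rise of 1.27 ± 0.21 (1.34 corrected, called). Hspe1, the mitochondrial HSP10, was at 429.9, 157 and 256 CPM in Post 2'-FL libraries against 71.5, 90.5 and 68.8 CPM in Post control libraries (1.87 ± 0.33, adjusted p = 0.00106). Chaperones and stress genes of the endoplasmic reticulum had 0 of 22 higher and 5 lower, and 3 lower after correction, among them Sel1l, of the degradation machinery, at 49.4, 68.1 and 53.2 CPM in Post 2'-FL libraries against 112, 115 and 143 CPM in Post control libraries. Rbm3, a cold-inducible RNA-binding protein, was at 547, 272 and 372 CPM in Post 2'-FL libraries against 134, 78.4 and 114 CPM in Post control libraries, a rise of 1.87 ± 0.32 (1.34 corrected, called), and it was the 1 called of 2 genes in its list. Of 15 HSP90 partners 4 were higher and 2 lower, and 3 higher and 1 lower after correction. Of 12 J-domain partners 2 were higher and 4 lower, and 0 higher and 2 lower after correction, with Dnajc7, which works with both HSP70 and HSP90, at 41.3, 71.1 and 69.4 CPM in Post 2'-FL libraries against 116, 124 and 136 CPM in Post control libraries (-1.05 ± 0.20, and -1.15 with a call after correction).

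Immediate early genes are known to respond to many stresses within a short time and are given beside the chaperones as another stress-responsive set. Of 12, 0 were higher and 4 lower in Post 2'-FL against Post control, in either version. Of all tested genes 19.3% were called lower there as tested and 12.7% after correction. In Post control against Pre control 1 was higher and 0 lower as tested, and 2 were higher and 0 lower after correction. All tested genes called higher in that comparison were 4.42% as tested and 5.37% after correction. Jun was at 22.9, 65.0 and 30.7 CPM in Post 2'-FL libraries, 128, 123 and 104 CPM in Post control libraries, 123, 52.5 and 55.7 CPM in Pre 2'-FL libraries and 58.1, 69.6 and 58.0 CPM in Pre control libraries. Within the Post control group the list was mixed. Jun and Junb were highest in library 1, where the inducible chaperones were low. Fos, Ier3 and Dusp1 were highest in library 2, and Fosb, Egr1, Ier2, Atf3, Zfp36 and Klf6 in library 3. Btg2 was at 129.6 CPM in libraries 1 and 2 and at 104 CPM in library 3.

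**Figure D4:**
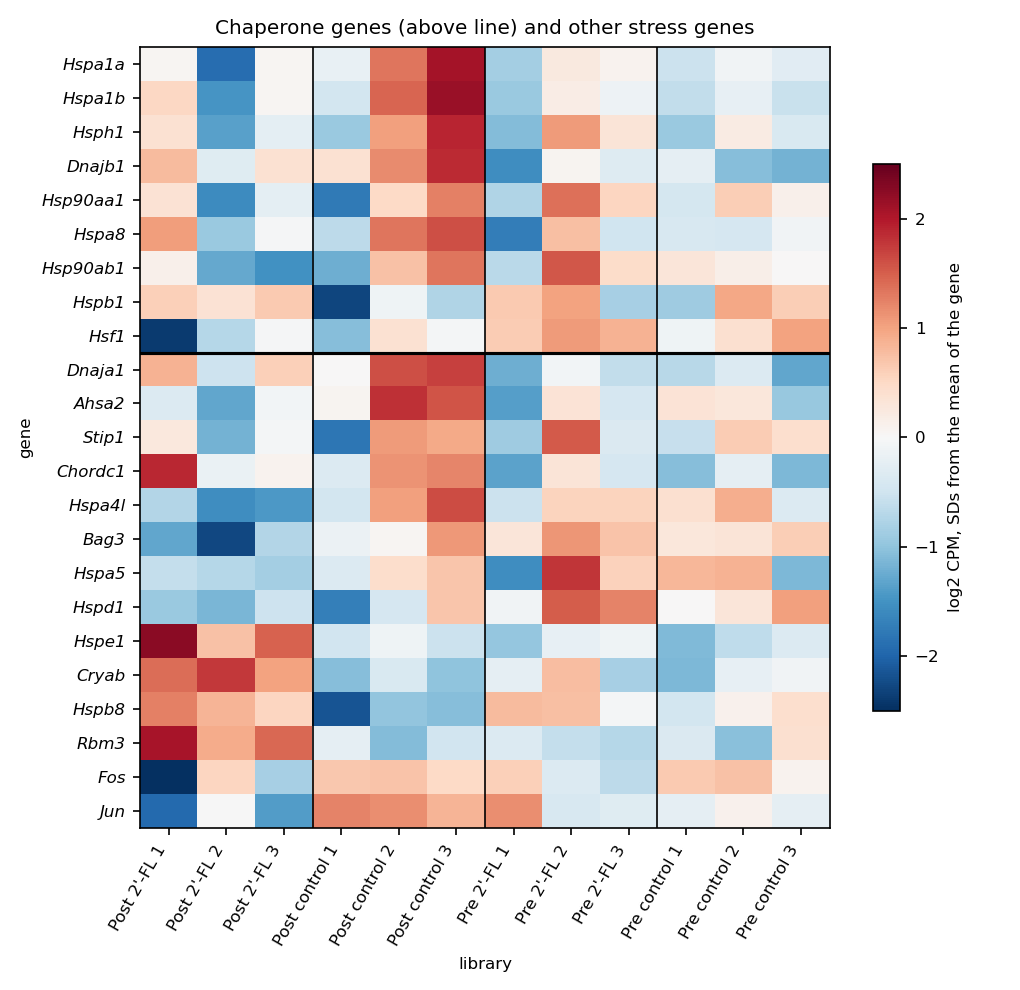
Log2 CPM of the 9 chaperone genes (above the line) and of 14 other stress genes (below it), chosen after their values were seen, in 12 libraries, as SDs from the mean of each gene (red above, blue below). Post control libraries 2 and 3 are red for Hspa1a, Hspa1b, Hsph1, Dnajb1, Hspa8 and Dnaja1, while Hspe1, Cryab, Hspb8 and Rbm3 are red in the Post 2'-FL libraries.

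In the 2'-FL arm after against before resection, most lists held called genes, where 25.3% of all tested genes were called higher and 30.0% lower as tested, and 16.2% higher and 21.2% lower after correction. TRiC and prefoldin had 6 of 13 higher and 0 lower as tested, but 2 higher and 4 lower after correction, and mitochondrial chaperones 4 of 11 higher and 5 lower. Relatives of HSP70 had 0 of 7 higher and 3 lower in either version, with Hspa2 at 1.52, 2.16 and 0.744 CPM in Post 2'-FL libraries against 9.67, 9.22 and 5.59 CPM in Pre 2'-FL libraries (-2.44 ± 0.46, adjusted p = 0.000578). Hspa2 was thus lower in both arms, with an interaction of -0.19 ± 0.63. Ier5 was at 101, 125 and 117 CPM in Post 2'-FL libraries against 42.1, 70.0 and 50.7 CPM in Pre 2'-FL libraries (1.08 ± 0.22, adjusted p = 0.00113), higher in both arms, with an interaction of -0.52 ± 0.31. Bag3 fell by 1.24 in the 2'-FL arm as tested, against a difference of -0.0028 in the control arm, and its interaction of -1.24 ± 0.35 was called as tested (adjusted p = 0.0317) but not after correction.

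Depth was between 5663275 and 9385266 counts per library. Epithelial markers (10 genes) summed to between 11181 and 15624 CPM in Post 2'-FL and between 11843 and 14480.2 CPM in Pre 2'-FL libraries, and smooth muscle markers to between 1033 and 2359 CPM in Pre 2'-FL and between 1326 and 1627 CPM in Pre control libraries. Endothelial markers (7 genes) summed to between 20.8 and 33.7 CPM in Post 2'-FL, 26.7 and 44.7 in Post control, 78.4 and 159.6 in Pre 2'-FL and 28.5 and 133 in Pre control libraries. Leukocyte markers (8 genes) summed to between 49.1 and 89.8 CPM in Post 2'-FL, 53.0 and 136 in Post control, 137 and 198 in Pre 2'-FL and 104 and 171 in Pre control libraries. Neuron and glia markers (7 genes) summed to between 8.01 and 11.0 CPM in Post 2'-FL, 5.30 and 8.32 in Post control, 24.1 and 30.9 in Pre 2'-FL and 14.5 and 29.4 in Pre control libraries. Fibroblast markers (6 genes) ranged from 295 to 497 CPM in Post 2'-FL, from 116 to 210.5 in Post control, from 269.7 to 478 in Pre 2'-FL and from 110.3 to 542 in Pre control libraries. Fat markers (5 genes) summed to between 71.1 and 309 CPM in all libraries, with the highest value in Pre 2'-FL library 1, where the inducible chaperones were low. In Post control libraries Cidec alone was at 100.2, 98.0 and 98.2 CPM, of sums between 114 and 123 CPM. In Pre 2'-FL library 1 Cidec was at 98.6 CPM, beside Fabp4 at 143 CPM and Adipoq at 48.5 CPM. Of 5 acinar pancreas markers, Cpa1, Pnlip and Amy2b were at 0 in all 12 libraries, and the list, almost all of it Cela1, summed to between 17.7 and 23.3 CPM in Post 2'-FL, 7.32 and 17.0 in Post control, 4.84 and 5.93 in Pre 2'-FL and 4.98 and 5.47 in Pre control libraries. The part of these cell types in the chaperone values was not tested.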

How the data were processed

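The 12 small bowel libraries were made from about 1.5 µg of RNA each with the TruSeq kit and sequenced on an Illumina instrument, per the labels' protocols. The authors deposited expected counts, estimated raw read counts per gene and library, which had not been normalised per the file headers. The submitters' processing notes name the mm10 build and DESeq, while aligner, counter, annotation and strandedness are not given in the sources used here. In each library 15.1% to 20.4% of entries were fractional, so reads had been divided between places.

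Entries of a gene were summed, which gave 35791 genes, and rounded. Testing used edgeR 4.0.16 (R 4.3.3): filterByExpr, TMM scaling and a single quasi-likelihood fit of the 12 libraries with group means, leaving 8 residual degrees of freedom. Tests were two-sided, p-values were adjusted by Benjamini-Hochberg over 13154 genes in each of 6 comparisons, and genes were called under 0.05. CPM used the TMM library sizes, where 3 counts, the floor for a count of 0, corresponded to less than 1 CPM in every library. The correction removed from each library a spline of 4 degrees of freedom on transcript length and GC content (GENCODE, 96.8% of tested genes) and was an alternative. Others were DESeq2 1.42.0, RLE factors, library totals, no filter, a replicate block, only the groups compared, the summed HSP70 pair and leaving out each library. Sequences were compared in Biopython 1.88 and credited to RefSeq. Intervals and floors cover counting error or library spread only, since reads are not independent molecules.

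The 9 genes and all lists were chosen with earlier results of these data known. Named beside the 9 are up to 4 called genes per list with the smallest p and the 8 genes most alike in pattern, while Stip1 and the partners named for r alone were chosen after their values were seen. List counts for the other 3 comparisons are not reported here.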

Additional observations from a re-analysis of the deposited data

How the results depend on the processing

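Of 468 log2 changes of the 9 genes recomputed under settings other than leaving out a library, 434 kept their direction and side of the threshold, 7 lost and 11 gained their call and 16 changed sign. The sign changes concerned differences that had not been called. In Post 2'-FL against Pre 2'-FL they were Hspa1a at 0.32 and Hspb1 at -0.61 with the length and GC correction, Hspa1a at 0.05 with the HSP70 pair summed, and Hspa1b at -0.10, Hspa8 at -0.13 and Hspb1 at -0.28 with library totals only. In Post control against Pre control Hsp90aa1 was at -0.02 with the correction. In Pre 2'-FL against Pre control Hspb1 was at -0.0039 with RLE size factors and with DESeq2 and at -0.02 with no filter, and Hspa8 was at 0.11 with library totals. In the interaction Hspb1 was at -0.04 with the correction. The cause was not tested.

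With the correction, members called were 2 in Post 2'-FL against Pre 2'-FL, where 4915 of 13154 genes were called, and 5 over both arms, where 5816 were. In Post 2'-FL against Post control 0 members and 2963 genes were called, and 1 gene was called in the interaction. With library totals only, 2 members were called in Post 2'-FL against Pre 2'-FL, with Hsp90ab1 at -0.82, and Dnajb1 was called at -0.65 in Post 2'-FL against Post control. In the interaction 1 member was called, Hspa1a at -3.59, and no filter also gave 1, Hspa1a at -3.23. In the main fit 55.3%, 38.1% and 15.5% of all tested genes were called in these comparisons, in that order. The shares under library totals and no filter are not given here for them. In Pre 2'-FL against Pre control 24 genes were called by DESeq2, 12 with no filter and 1 with only the groups compared. That last setting was not run for both arms together or the interaction, which use all 4 groups.

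Same-numbered libraries did not deviate together, with r over 0.1 in 3 of 18 pairs and from -0.23 to 0.42, so they share only a number. With the replicate block, 1 member was called in Post 2'-FL against Post control, where the main fit called 2 members and 38.1% of all tested genes. With block and correction 0 members and 2874 genes were called there, and 0 genes in the interaction. Under the block Hspa1b in Post control against Pre control was at 2.63, with an adjusted p of 0.0504, and with block and correction at 2.73. With both, Hspa1a and Hspb1 in Post 2'-FL against Pre 2'-FL were at 0.41 and -0.60, Hsp90aa1 in Post control against Pre control at -0.08 and Hspb1 in the interaction at -0.05.

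Leaving out each of 12 libraries in turn gave 6261 to 7339 genes and 0 to 1 members called in Post 2'-FL against Pre 2'-FL, 267 to 1859 genes and 0 to 3 members in Post control against Pre control, 6633 to 7447 genes and 2 to 4 members over both arms, 3293 to 5375 genes and 0 to 3 members in Post 2'-FL against Post control, 0 to 17 genes and 0 members in Pre 2'-FL against Pre control, and 495 to 3038 genes and 0 to 2 members in the interaction. Differences that had not been called and changed sign ran from -0.70 to 0.21 for Hspa1a, -0.38 to 0.76 for Hspa1b, -0.06 to 0.56 for Hspa8 and -0.11 to 0.20 for Hspb1 in Post 2'-FL against Pre 2'-FL, from -0.25 to 0.39 for Hsp90aa1 and -0.08 to 0.32 for Hsp90ab1 in Post control against Pre control, from -0.30 to 0.02 for Hsp90aa1 over both arms and from -0.55 to 0.09 in Post 2'-FL against Post control. In Pre 2'-FL against Pre control they ran from -0.02 to 0.73 for Hspa1a, -0.05 to 0.71 for Hspa1b, -0.36 to 0.24 for Hspa8, -0.04 to 0.32 for Dnajb1, -0.08 to 0.42 for Hsp90aa1, -0.07 to 0.32 for Hsp90ab1 and -0.17 to 0.19 for Hspb1. A group of 2 libraries is then assumed to vary like the others.

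With 3 libraries per group and SEs near 0.75 for Hspa1a and Hspa1b, changes under several fold in these genes were not detectable, while Hsp90ab1, with an SE of 0.26, allowed finer limits. The lowest Hspa1a value rests on 6 counts.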
